A study of Mus musculus with 4 samples.

Results

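RNA sequencing data of mouse acute myeloid leukaemia (AML) leukaemia stem cells (LSCs) were used to describe the nuclear genes that encode the subunits of oxidative phosphorylation. The genes were chosen by symbol, and their coordinates and gene types are RefSeq's on GRCm38.p6. They are the protein-coding genes outside the mitochondrial genome whose symbols start with Ndufa, Ndufb, Ndufc, Ndufs, Ndufv, Uqcr, Cox4i, Cox5, Cox6, Cox7, Cox8 or Atp5, together with Sdha, Sdhb, Sdhc, Sdhd, Cyc1 and Cycs, without the Ndufaf assembly factors and without pseudogenes. This gave 90 of the 27179 genes in the expression table. Complex I had 39 of them, complex II had 4, complex III had 9, complex IV had 20 and complex V had 17, and Cycs encodes cytochrome c. Ndufa4 and Ndufa4l2 were placed in complex IV, where the NDUFA4 protein is now assigned, and Cox7a2l, a factor that joins complex III to complex IV, was kept with complex IV because of its symbol.

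The samples were 2 B7-H4-null and 2 wild-type (WT) libraries. All 4 came from bone marrow of C57BL/6 mice carrying an AML model and were sorted by flow cytometry for yellow fluorescent protein, for Mac-1, a myeloid integrin, and for c-Kit, a receptor of immature blood cells. B7-H4, encoded by Vtcn1, is a B7-family surface protein that restrains T cells, and the series compared gene expression between the genotypes. The age of the mice, the way the leukaemia was started, the make-up of the null allele and the number of animals behind a library are not stated in these labels.

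Oxidative phosphorylation takes place in the inner mitochondrial membrane. Electrons from NADH enter at complex I and those from succinate at complex II, pass through ubiquinone, complex III and cytochrome c, and reach oxygen at complex IV. Complexes I, III and IV pump protons, and complex V, the ATP synthase, lets them flow back to make ATP. Complex II is built from nuclear genes alone, whereas complexes I, III, IV and V combine nuclear subunits with subunits encoded in mitochondrial DNA. In human AML, leukaemia stem cells are known for their reliance on this pathway.

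Levels are given in RPKM, reads scaled to gene length and to the reads of the library, so that genes of different length can be set side by side. The library totals behind the RPKM values ranged from 9419425 to 10814448 reads, and 11814 to 11871 genes per library reached 1 RPKM. Pearson's r across the 12107 tested genes, which are not independent replicates, was 0.948 between the B7-H4-null libraries and 0.957 between the WT libraries. Vtcn1 had 1 read in each B7-H4-null library and 0 reads in both WT libraries, too few to check the genotype labels. Kit, which encodes c-Kit, stood at 11.02 and 9.37 RPKM in B7-H4-null LSCs, against 24.0 and 7.19 RPKM in WT LSCs, and Itgam and Itgb2, the genes of Mac-1, were present in every library. Markers of late neutrophils, cells that the Mac-1 part of the sort can hold, summed to 7352 and 9161 RPKM in B7-H4-null LSCs and to 25121 and 15137 RPKM in WT LSCs. All 12 of these markers were lower in both B7-H4-null libraries than in either WT library, against 28.0% of all tested genes. Of the 12, 11 had an unadjusted p under 0.05, against 7.20% of all tested genes that were lower at that level, and 0 passed the adjusted threshold. Their part in the differences described here was not tested. Summed T and NK cell markers stayed between 0.941 and 1.81 RPKM, erythroid markers between 1.49 and 4.14 RPKM, and megakaryocyte markers between 5.06 and 17.1 RPKM. B cell markers summed to 122 and 132 RPKM in B7-H4-null LSCs and to 57.7 and 56.4 RPKM in WT LSCs, with Pax5 at 0.

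The nuclear subunits were among the abundant messages of these cells, and most of their estimated differences between the genotypes were small. Of the 90 genes, 85 reached 1 RPKM in at least 2 libraries and were tested, all except the complex IV genes Cox6a2, Cox7b2, Cox8b, Cox8c and Ndufa4l2. Of the 85, 0 passed the threshold of an adjusted p of 0.05 (limma on log2(RPKM + 1), Benjamini-Hochberg over all 12107 genes), against 12 genes of the whole table, a background of 0.0991%. At an unadjusted p under 0.05, 1 subunit was higher in the B7-H4-null libraries, the complex IV isoform gene Cox4i2, against a background of 5.05% of genes, and 0 were lower, against 7.20%. Cox4i2 was tested only because its B7-H4-null values exceeded 1 RPKM while both WT values were below it, so it had to differ and its p supports nothing. At that level 0 subunits were higher with a filter at 5 RPKM, without B7-H4-null replicate 2 or without WT replicate 1. There were 2 higher without B7-H4-null replicate 1 (Cox4i2 and Ndufb4c) or with no filter (Cox4i2 and Cox6a2), and 1, Cox7a1, was lower with the replicate block. Applied to reads recovered from the RPKM values, limma's voom also called 0 of the 85. The median log2 difference over the 85 subunits was 0.06, with 59 above 0 and 26 below, while the median over all tested genes was −0.09. The middle 50% of the subunits spanned 0.18 log2 units, against 0.55 for all tested genes, and 82 of the 85 lay within 0.35 of 0. The 95% interval of the difference stayed within 1 log2 unit in either direction, a 2-fold change, for 80 of 85 subunits, against 52.4% of all tested genes, and the exceptions were Ndufb4b, Ndufb4c, Ndufb7, Cox4i2 and Cox7a1. A p that misses the threshold does not show that the genotypes are alike, and these intervals give the size of difference that 2 libraries per group left possible.

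**Figure D1:**
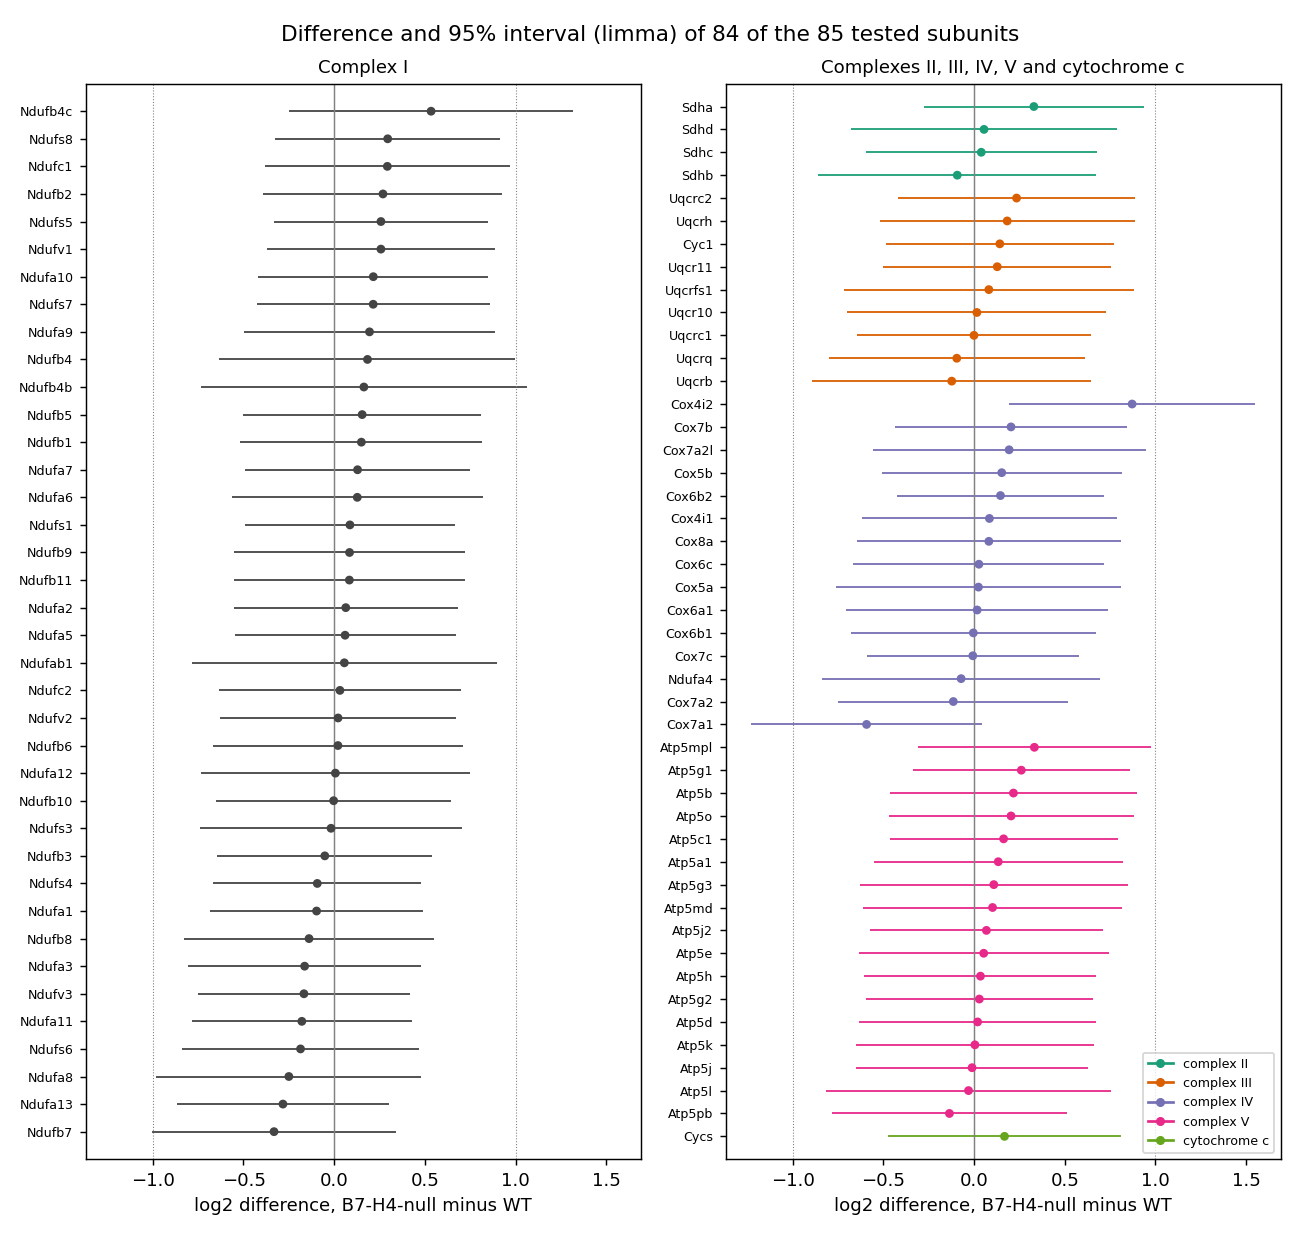
Log2 difference, B7-H4-null minus WT, on log2(RPKM + 1) for 84 of the 85 tested subunits, with limma 95% intervals as lines; complex I is on the left, complexes II to V and cytochrome c on the right, and dotted lines mark 1 log2 unit either way. Most points lie within 0.35 of 0, and Cox4i2, at 0.87, passed the filter on low values only through the B7-H4-null libraries.

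The median differences of the complexes lay close together. Median log2 differences were 0.06 for complex I, 0.05 for complex II, 0.08 for complex III, 0.03 for complex IV and 0.07 for complex V. Summed over its nuclear genes, complex I had 3271 and 4002 RPKM in B7-H4-null LSCs, against 3311 and 3928 RPKM in WT LSCs. The 4 genes of complex II summed to 404 and 533 RPKM in B7-H4-null LSCs and to 396 and 495 RPKM in WT LSCs. Complex III stood at 1161 and 1538 RPKM in B7-H4-null LSCs, against 1129 and 1444 RPKM in WT LSCs. In each of these 3 sums the libraries of one genotype lay further apart than the means of the genotypes did. Complex IV came to 2312 and 3094 RPKM in B7-H4-null LSCs and to 2331 and 2878 RPKM in WT LSCs. Complex V came to 3325 and 4256 RPKM in B7-H4-null LSCs and to 3151 and 3763 RPKM in WT LSCs. The same held for these 2 sums. The order of the complexes by the median level of their tested genes was V, IV, III, II and I, at 142, 139, 116, 98.5 and 85.1 RPKM over all libraries.

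The median difference of the subunits was larger between the replicates of a genotype than between the means of the genotypes. The median log2 difference between replicates was 0.37 in B7-H4-null LSCs and 0.25 in WT LSCs, against 0.06 between genotypes. After median-ratio scaling of the libraries these medians lay closer together, at 0.25 between B7-H4-null replicates and 0.22 between WT replicates, against 0.16 between genotypes. A difference between single libraries varies more than a difference between means of 2 libraries, so the replicate and genotype medians are not on a like scale. In the second B7-H4-null library 80 of 85 subunits were higher than in the first, 94.1%, where 61.2% of all tested genes were. In the second WT library 73 of 85 were higher than in the first, 85.9%, where 53.5% of all tested genes were, and 68 subunits were higher in replicate 2 of both genotypes. The median ratio of replicate 2 to replicate 1 was 1.29 for the subunits in B7-H4-null LSCs and 1.19 in WT LSCs, against 1.11 in B7-H4-null LSCs and 1.02 in WT LSCs for all tested genes. Together the 90 genes took 1.95% and 2.40% of all RPKM in B7-H4-null LSCs and 1.98% and 2.37% in the WT libraries. After that scaling the counts were 74 of 85 in B7-H4-null LSCs and 73 of 85 in WT LSCs, against 52.4% and 51.4% of all tested genes.

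Every complex took part in this difference. In complex III all 9 genes were higher in replicate 2 of both genotypes, and in complex II 4 of 4 were in B7-H4-null LSCs and 3 of 4 in WT LSCs. Complex I had 36 of 39 in B7-H4-null LSCs and 33 of 39 in WT LSCs, complex IV had 14 of 15 in B7-H4-null LSCs and 13 of 15 in WT LSCs, and complex V had 16 of 17 in B7-H4-null LSCs and 15 of 17 in WT LSCs. The widest ratios of replicate 2 to replicate 1 in B7-H4-null LSCs were 1.96 for Ndufb4c, 1.75 for Cox5a, a nuclear subunit near the catalytic core of complex IV, and 1.74 for Uqcrb, a ubiquinone-binding subunit of complex III. The ratio of Ndufb4c rests on few reads, recovered as 4 in replicate 1 and 9 in replicate 2, the lowest counts that fit its values. The subunits not higher in B7-H4-null replicate 2 were Ndufb11, Ndufb4b, Ndufv3, Cox7c and Atp5g2. In WT LSCs the exceptions were Ndufa12, Ndufa9, Ndufab1, Ndufb2, Ndufc1, Ndufs1, Sdha, Cox6b2, Cox7b, Atp5g1, Atp5j and Cycs. Among them Ndufab1 rests on only 16 reads in WT replicate 1 and 6 in WT replicate 2. The labels do not say that a replicate number marks a shared batch, so replicate 2 of one genotype is not known to belong with replicate 2 of the other.

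**Figure D2:**
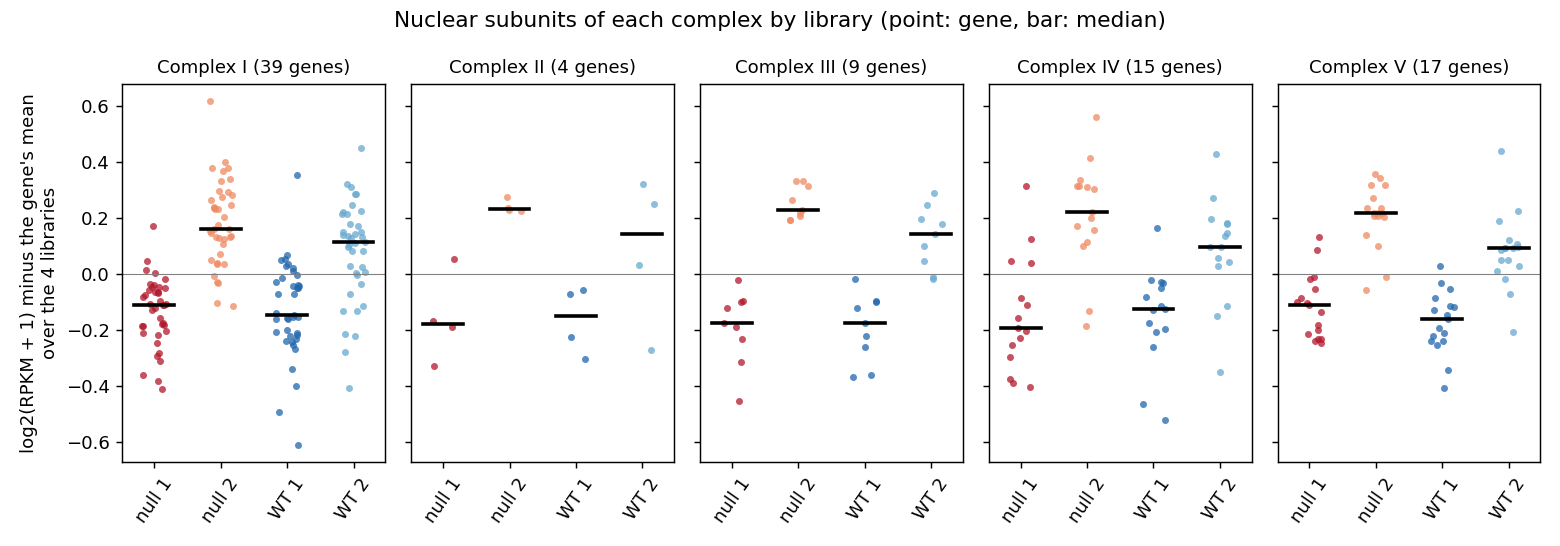
Each point is a tested subunit in 1 library, as log2(RPKM + 1) minus that gene's mean over the 4 libraries; panels are complexes I to V, and black bars are medians. In every panel the medians of null 2 and WT 2 lie above 0 and those of null 1 and WT 1 below it.

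The 13 protein genes of mitochondrial DNA, which supply the other subunits of complexes I, III, IV and V, differed between replicates in the opposite direction. All 13 were lower in replicate 2 than in replicate 1 in both genotypes, and their sum was 35117 and 23361 RPKM in B7-H4-null LSCs, against 32543 and 17770 RPKM in WT LSCs. The ratio of nuclear to mitochondrial sums was therefore 0.298 and 0.575 in the B7-H4-null libraries and 0.317 and 0.704 in the WT libraries. In complex I this ratio was 0.253 and 0.439 in the B7-H4-null libraries and 0.236 and 0.633 in the WT libraries. Complex III had ratios of 0.235 and 0.468 in the B7-H4-null libraries and of 0.218 and 0.592 in the WT libraries. For complex IV they were 0.160 and 0.337 in the B7-H4-null libraries and 0.206 and 0.368 in the WT libraries. Complex V, to which mitochondrial DNA contributes 2 genes, was the one complex with more nuclear than mitochondrial RPKM, at 1.18 and 2.39 in the B7-H4-null libraries and 1.55 and 2.90 in the WT libraries. The libraries were made from RNA with a poly(A) tail, and this ratio describes the libraries.

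**Figure D3:**
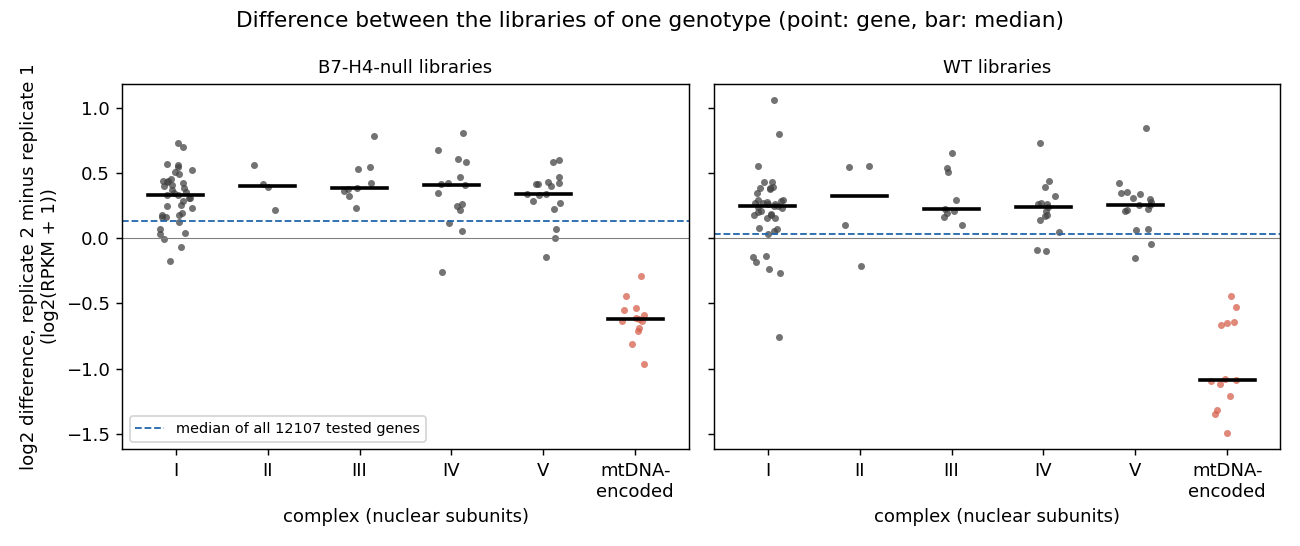
Log2 difference between replicate 2 and replicate 1, on log2(RPKM + 1), within B7-H4-null (left) and WT (right), for the nuclear subunits of each complex and for the 13 genes of mitochondrial DNA; points are genes, bars are medians and the dashed line is the median of all tested genes. Nuclear medians lie above the dashed line in each complex, and all mitochondrially encoded genes lie below 0.

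Promoter sequences were searched because the nuclear subunits differed together between libraries. NRF1, a factor known for activating respiratory genes, binds a palindromic motif, searched here as GCGCANGCG, and GABPA, another activator of such genes, binds CCGGAAG. RefSeq promoters of GRCm38.p6, taken from 250 bases before to 50 bases after a gene's start, were available for 72 of the 90 genes, which had 77 promoters. On either strand the NRF1 motif stood in 22 of these 77 promoters, 28.6%, and in 6.25% of all 32851 promoters. The GABPA motif stood in 17, 22.1%, and in 8.86% of all promoters. AAGATGGCG, a motif of YY1, was found in 7, 9.09%, and in 1.40% of all promoters, and TCAAGGTCA, a motif of ERRA, in 2, 2.60%, and in 0.423% of all promoters. Median GC content was 57.7% in the promoters of the subunit genes and 52.7% in all promoters, and the shares were not adjusted for it. The NRF1 matches below, 1 gene each from complexes I, II, IV and V, lie upstream of the start and are shown with the bases around them. Letters run 5′ to 3′ on the gene's strand, and capitals mark 1 match per gene to the motif or its reverse complement. Other matches in these stretches are not marked, such as a match before the capitals in Ndufa8.
Ndufa8, chr2:36049339-36049372, minus strand: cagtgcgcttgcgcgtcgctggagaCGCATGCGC
Sdhd, chr9:50603895-50603953, minus strand: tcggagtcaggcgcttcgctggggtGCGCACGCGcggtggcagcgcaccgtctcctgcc
Cox6a1, chr5:115349086-115349144, minus strand: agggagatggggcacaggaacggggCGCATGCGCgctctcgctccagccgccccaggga
Atp5k, chr5:108434415-108434473, minus strand: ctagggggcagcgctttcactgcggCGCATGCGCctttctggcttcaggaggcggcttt

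The medians of genes with a motif and of genes without one lay close together. The 21 tested genes with the NRF1 motif had a median log2 difference between genotypes of 0.05 and the 49 tested genes with a promoter but no such motif one of 0.05. Between B7-H4-null replicates the medians were 0.33 with the motif and 0.37 without, and between WT replicates 0.25 with and 0.25 without. For the GABPA motif the genotype medians were 0.02 with and 0.07 without, the medians between B7-H4-null replicates 0.42 with and 0.34 without, and those between WT replicates 0.27 with and 0.24 without. A match is a description of letters in this window, and no binding was measured.

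Complex I passes electrons from NADH to ubiquinone through a flavin and a chain of iron-sulfur clusters, which its core subunits hold. Ndufs8 (Entrez 225887, chromosome 19:3908863-3912774), a core subunit with iron-sulfur clusters, had 91.7 and 119 RPKM in B7-H4-null LSCs, against 83.9 and 85.7 RPKM in WT LSCs. Both B7-H4-null values lay above both WT values, and the log2 difference was 0.30 (95% interval −0.32 to 0.91, adjusted p = 0.686). Ndufv1, which binds NADH and the flavin, had 82.1 and 104 RPKM in B7-H4-null LSCs, against 70.6 and 84.02 RPKM in WT LSCs, and the first B7-H4-null library lay below the second WT library. Its log2 difference was 0.26 (95% interval −0.37 to 0.89, adjusted p = 0.730). Ndufs7, which carries the last cluster before ubiquinone, had 99.4 and 127 RPKM in B7-H4-null LSCs, against 87.8 and 106 RPKM in WT LSCs, again with an overlap between groups. Ndufs1, the largest core subunit, had the lowest levels of the core, with 26.4 and 30.04 RPKM in B7-H4-null LSCs, against 27.8 and 25.1 RPKM in WT LSCs. Ndufv2, which carries a cluster beside the flavin, had 63.9 and 83.7 RPKM in B7-H4-null LSCs, against 64.96 and 79.9 RPKM in WT LSCs. Within each genotype Ndufv2 was higher in replicate 2, and the groups covered nearly the same range. The 7 tested core genes had a median log2 difference of 0.09, and the 32 other genes of complex I one of 0.06.

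Among the accessory subunits of complex I, Ndufb7 (Entrez 66916, chromosome 8:83566758-83571623) was the most abundant gene of the complex, with 196 and 265 RPKM in B7-H4-null LSCs, against 264 and 311 RPKM in WT LSCs. Its log2 difference was −0.33 (95% interval −1.005 to 0.34, adjusted p = 0.677), and the second B7-H4-null library slightly exceeded the first WT library. Ndufa13 (Entrez 67184, chromosome 8:69894163-69902558), a subunit also described in cell death, had 56.9 and 60.02 RPKM in B7-H4-null LSCs, against 66.2 and 76.8 RPKM in WT LSCs. Both B7-H4-null values were below both WT values, with a log2 difference of −0.28 (95% interval −0.87 to 0.30, adjusted p = 0.682). Exons of Ndufa13 overlap those of Tssk6 on the opposite strand over 375 bases, 30.0% of its exon bases, and since the libraries do not mark strand, reads there could belong to either gene; Tssk6 had 6.02 and 4.82 RPKM in B7-H4-null LSCs, against 6.27 and 6.87 RPKM in WT LSCs. Ndufb4c (Entrez 100041273, chromosome 15:73809449-73809933) is a copy of Ndufb4 that is protein-coding in RefSeq but a pseudogene in GENCODE vM21. Its span lies within that of Mroh5. Ndufb4c had 1.87 and 3.67 RPKM in B7-H4-null LSCs, against 1.30 and 1.77 RPKM in WT LSCs. The recovered reads were 13 in all in B7-H4-null LSCs and 7 in WT LSCs. They assume a gene length of 227 bases, the shortest that gave whole reads, so the true counts may be higher. The groups of Ndufb4c did not overlap, and its log2 difference was 0.53 (95% interval −0.25 to 1.32, adjusted p = 0.568). From these lowest counts the ratio of reads per total was 1.84. Its exact 95% interval of 0.683 to 5.46 covers counting error only and would be narrower with more reads. Ndufb4 had 6.55 and 8.96 RPKM in B7-H4-null LSCs, against 4.78 and 9.09 RPKM in WT LSCs, and 37.0% of the 50-base words of its transcript were also found in other genes, so that its reads could be split among copies.

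Complex II, succinate dehydrogenase, is both a respiratory complex and an enzyme of the TCA cycle. Sdha (Entrez 66945, chromosome 13:74322255-74350240), the flavin-bearing catalytic subunit, had 92.98 and 108 RPKM in B7-H4-null LSCs, against 85.99 and 73.9 RPKM in WT LSCs. Both B7-H4-null libraries were above both WT libraries, and the log2 difference was 0.33 (95% interval −0.28 to 0.93, adjusted p = 0.640). Sdhb (Entrez 67680, chromosome 4:140961271-140979198), the iron-sulfur subunit, had 79.8 and 118 RPKM in B7-H4-null LSCs, against 85.6 and 126 RPKM in WT LSCs. Replicate 2 was above replicate 1 in each genotype and the groups overlapped, with a log2 difference of −0.09 (95% interval −0.86 to 0.67, adjusted p = 0.928). The membrane anchor Sdhc had 82.4 and 110.3 RPKM in B7-H4-null LSCs, against 89.5 and 96.1 RPKM in WT LSCs, and the anchor Sdhd (Entrez 66925, chromosome 9:50596340-50603849), the most abundant gene of the complex, had 149 and 196 RPKM in B7-H4-null LSCs, against 135 and 199 RPKM in WT LSCs. In both anchors the ranges of the genotypes overlapped, with log2 differences of 0.04 for Sdhc and 0.05 for Sdhd. Of the 4 genes, Sdha was the only one with non-overlapping groups, against 16.0% of all tested genes that were higher in both B7-H4-null libraries.

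Complex III takes electrons from ubiquinol and gives them to cytochrome c. Uqcrh (Entrez 66576, chromosome 4:116066965-116075070), the acidic hinge subunit that helps cytochrome c dock, was the most abundant gene of the complex, with 224 and 263 RPKM in B7-H4-null LSCs, against 177 and 258 RPKM in WT LSCs. Uqcrc2 (Entrez 67003, chromosome 7:120635189-120659523), a large core protein on the matrix side, had 107 and 145 RPKM in B7-H4-null LSCs, against 98.3 and 114 RPKM in WT LSCs, with a log2 difference of 0.23 (95% interval −0.42 to 0.89, adjusted p = 0.764). Cyc1, the cytochrome c1 subunit that carries a heme, had 105 and 137 RPKM in B7-H4-null LSCs, against 105 and 113 RPKM in WT LSCs, and its log2 difference was 0.14 (95% interval −0.49 to 0.77, adjusted p = 0.861). In each of these 3 genes the lower B7-H4-null value lay below the higher WT value. Exons of Uqcrc2 overlap those of Pdzd9 on the opposite strand over 19.7% of its exon bases. Uqcrfs1, the Rieske iron-sulfur protein, had 94.2 and 138 RPKM in B7-H4-null LSCs, against 85.6 and 136 RPKM in WT LSCs, with replicate 2 higher in both genotypes. Of the 9 genes of complex III, 0 had groups that did not overlap, against 16.0% of all tested genes that were higher and 28.0% that were lower in both B7-H4-null libraries.

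Cytochrome c carries the electrons onward, and Cycs (Entrez 13063, chromosome 6:50562563-50566569) is its gene in somatic cells. Cycs had 1.70 and 1.96 RPKM in B7-H4-null LSCs, against 1.74 and 1.32 RPKM in WT LSCs, with a log2 difference of 0.17 (95% interval −0.48 to 0.81, adjusted p = 0.835). This is far below the level of Cyc1, and 28.5% of the 50-base words of its transcript also occurred in other genes, among them 10 pseudogenes, so its level is uncertain. Of the other tested subunits that averaged under 25 RPKM, Atp5l shared 84.8% of its words with other genes, Ndufb4 37.0%, Ndufs5 31.1% and Cox7c 27.9%, while Atp5g1 shared 11.6%, Ndufa11 6.10% and Cox4i2 and Cox7a1 0%. Abundant genes shared words as well, among them Atp5pb with 38.7% and Cox5a with 32.0%. Of 87 subunit genes searched, 39 shared no 50-base word with another gene and 15 shared more than 25% of their words. How the authors treated reads that align to several places is not given in the sources here.

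Complex IV, cytochrome c oxidase, has subunits that exist as isoforms, one form in most tissues and another in muscle, lung or testis. The common forms carried nearly all of the signal. Cox4i1 (Entrez 12857, chromosome 8:120668225-120674209), the common form of subunit 4, was the most abundant of the 90 genes and ranked 88 among all genes of the table by mean RPKM, with 651 and 779 RPKM in B7-H4-null LSCs, against 577 and 782 RPKM in WT LSCs. Cox6a1 had 190.0 and 290.2 RPKM in B7-H4-null LSCs, against 216 and 249.9 RPKM in WT LSCs, Cox8a had 225 and 338 RPKM in B7-H4-null LSCs, against 237 and 286 RPKM in WT LSCs and Cox6b1 had 269 and 357 RPKM in B7-H4-null LSCs, against 284 and 341 RPKM in WT LSCs. In all 4 of these genes replicate 2 was above replicate 1 in each genotype, and the genotypes overlapped. Exons of Cox4i1 overlap those of Emc8 on the opposite strand over 9.94% of its exon bases. Cox7b had 94.4 and 127 RPKM in B7-H4-null LSCs, against 98.4 and 91.8 RPKM in WT LSCs, with a log2 difference of 0.20 (95% interval −0.44 to 0.84, adjusted p = 0.795). Its first B7-H4-null library lay within the WT range.

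Cox4i2 (Entrez 84682, chromosome 2:152753916-152765039), the form of subunit 4 known from lung and from the response to low oxygen, had the lowest mean level of the tested members. It had 1.02 and 1.40 RPKM in B7-H4-null LSCs, against 0.136 and 0.277 RPKM in WT LSCs, from 18 reads in all in B7-H4-null LSCs and 3 in WT LSCs. The groups did not overlap, which the filter on low values had fixed, and the log2 difference was 0.87. In the fit with no filter on low values its adjusted p was 0.414 (limma). The ratio of reads per total was 5.95 with an exact 95% interval of 1.74 to 31.6, which covers counting error only. In B7-H4-null LSCs Cox4i2 stood at 0.157% and 0.180% of Cox4i1, against 0.0235% and 0.0354% in WT LSCs. The gene's span overlaps that of Bcl2l1 over 6308 bases, without shared exon bases in GENCODE vM21, and Bcl2l1 had 7.79 and 12.7 RPKM in B7-H4-null LSCs, against 13.8 and 17.4 RPKM in WT LSCs.

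Most restricted isoforms of complex IV had few reads or none. Cox7a1 (Entrez 12865, chromosome 7:30184171-30186030), the heart and muscle form of subunit 7a, had 2.03 and 2.53 RPKM in B7-H4-null LSCs, against 3.50 and 4.40 RPKM in WT LSCs, with both B7-H4-null values below both WT values. Its log2 difference was −0.59 (95% interval −1.23 to 0.04, adjusted p = 0.435), and with 17 reads in B7-H4-null LSCs and 29 in WT LSCs the ratio of reads per total was 0.582, exact 95% interval 0.300 to 1.09. The liver form Cox7a2 had 148 and 188 RPKM in B7-H4-null LSCs, against 170.2 and 193 RPKM in WT LSCs, and Cox7a2l had 123 and 133 RPKM in B7-H4-null LSCs, against 86.3 and 144 RPKM in WT LSCs, lowest in the first WT library. Cox6a2, the muscle form of subunit 6a, had 0.805 and 0.842 RPKM in B7-H4-null LSCs, against 0.150 and 0.306 RPKM in WT LSCs, was under the level needed for a test, and gave 11 reads in B7-H4-null LSCs and 3 in WT LSCs, a read ratio of 3.64 (exact 95% interval 0.961 to 20.3). Cox7b2 and Cox8b had 0 reads in every library, and Cox8c had 1 read, in the second WT library. At these depths 3 reads in a gene of 1 kb, taken here as a floor, correspond to 0.277 to 0.318 RPKM. Lower levels of such a gene rest on fewer reads than that. Exons of Cox6a2 overlap those of Itgad on the opposite strand over 10.3% of its exon bases. Ndufa4 had 184 and 295 RPKM in B7-H4-null LSCs, against 219 and 274 RPKM in WT LSCs, while Ndufa4l2, a form induced by low oxygen, had 0 and 0.384 RPKM in B7-H4-null LSCs, against 0.205 and 0.209 RPKM in WT LSCs.

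Cox6b2 (Entrez 333182, chromosome 7:4751792-4753094) was the exception among the restricted isoforms. This form of subunit 6b is known from testis, and it had 83.7 and 86.8 RPKM in B7-H4-null LSCs, against 79.3 and 74.7 RPKM in WT LSCs, which is 31.1% and 24.3% of Cox6b1 in the B7-H4-null libraries and 28.0% and 21.9% in the WT libraries. None of its transcript's 50-base words occurred in another gene. Its values lay closer together than those of Cox6b1, both B7-H4-null values were above both WT values, and the log2 difference was 0.15 (95% interval −0.43 to 0.72, adjusted p = 0.840).

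**Figure D4:**
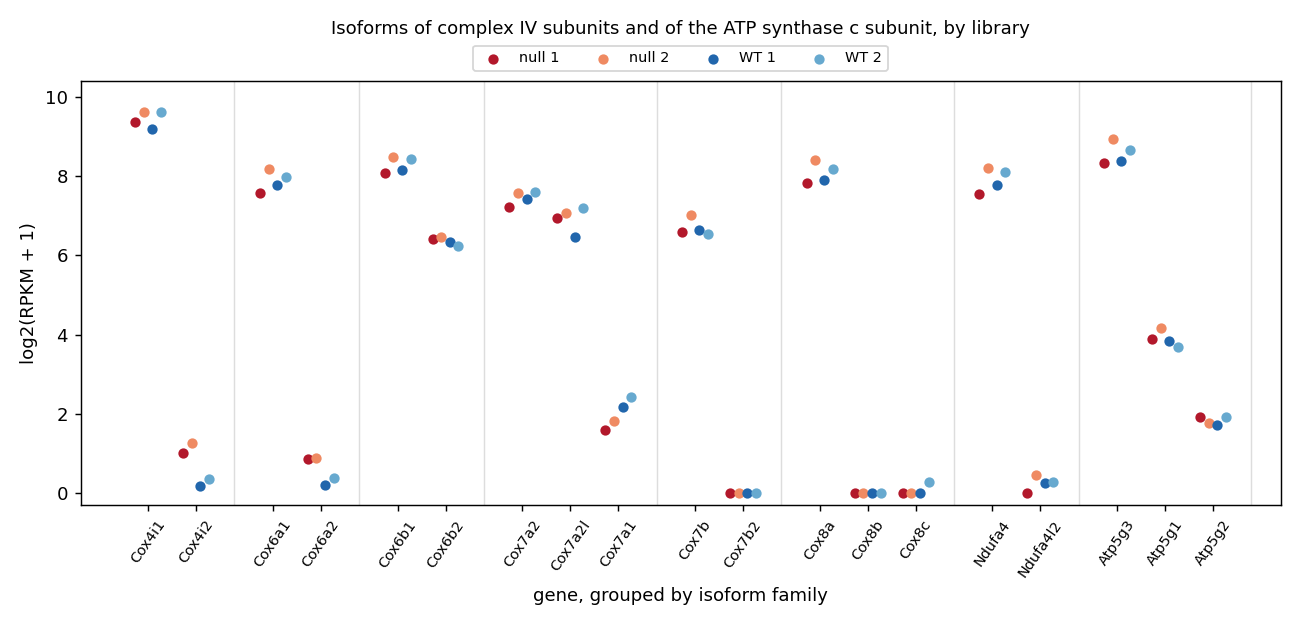
Levels of isoform families on log2(RPKM + 1), by library, with B7-H4-null left of WT for each gene. The common forms Cox4i1, Cox6a1, Cox6b1, Cox7a2, Cox8a and Atp5g3 sit high in all libraries. Cox6b2 is the restricted isoform closest to them, at 21.9% to 31.1% of Cox6b1 by library, and Cox7b2 and Cox8b are at 0.

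Complex V couples a membrane rotor to the catalytic head. Atp5b (Entrez 11947, chromosome 10:128083307-128090388), the catalytic beta subunit, had 635 and 849.7 RPKM in B7-H4-null LSCs, against 616 and 648 RPKM in WT LSCs, and ranked 91 among all genes of the table by mean RPKM. Its log2 difference was 0.22 (95% interval −0.46 to 0.90, adjusted p = 0.793), and the first B7-H4-null library lay within the WT range. Atp5a1, the alpha subunit, ranked 113 and had 485 and 614 RPKM in B7-H4-null LSCs, against 441 and 560.4 RPKM in WT LSCs. The 5 genes of the catalytic head and its stalk, Atp5a1, Atp5b, Atp5c1, Atp5d and Atp5e, were all above 0 in log2 difference, with a median of 0.13, and the 12 others had a median of 0.05. Atp5mpl (Entrez 70257, chromosome 12:111961374-111967009), a small membrane protein of the synthase, had 351 and 369 RPKM in B7-H4-null LSCs, against 253 and 323 RPKM in WT LSCs, without overlap between groups and with a log2 difference of 0.33 (95% interval −0.31 to 0.97, adjusted p = 0.657).

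The c subunit, whose ring turns in the membrane, is encoded by Atp5g1, Atp5g2 and Atp5g3, which differ in their targeting sequences and give the same mature protein. Atp5g3 (Entrez 228033, chromosome 2:73908447-73912464) carried nearly all of it, with 319 and 485 RPKM in B7-H4-null LSCs, against 331 and 402 RPKM in WT LSCs. Atp5g1 (Entrez 11951, chromosome 11:96072793-96075694) had 13.8 and 17.04 RPKM in B7-H4-null LSCs, against 13.4 and 11.9 RPKM in WT LSCs, with non-overlapping groups and a log2 difference of 0.26 (95% interval −0.34 to 0.86, adjusted p = 0.712). Relative to Atp5g3 it stood at 4.33% and 3.52% in the B7-H4-null libraries and at 4.04% and 2.97% in the WT libraries. Atp5g2 had 2.79 and 2.43 RPKM in B7-H4-null LSCs, against 2.29 and 2.80 RPKM in WT LSCs, with full overlap. Parts of the transcripts of Atp5g1 and Atp5g2, 11.6% and 14.8% of their 50-base words, also occurred in other genes.

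Across all complexes, 8 tested subunits were higher in both B7-H4-null libraries than in either WT library: Ndufb4c, Ndufs5, Ndufs8, Sdha, Cox4i2, Cox6b2, Atp5g1 and Atp5mpl. This is 9.41% of the 85, where 16.0% of all tested genes were. Lower in both were Ndufa13, Ndufv3 and Cox7a1, 3.53% of the 85, against 28.0% of all tested genes. With median-ratio scaling the counts were 24 higher and 2 lower, against 22.1% and 22.2% of all tested genes, and the median log2 difference was 0.16 for the subunits and 0.01 for all tested genes. Under that scaling 73 subunits had a log2 difference above 0 and 12 below. With quantile normalization the subunit median was close to 0, with 42 above 0 and 43 below. When B7-H4-null replicate 2 was left out the subunit median was −0.11, and when replicate 1 of that genotype was left out it was 0.24. It was −0.08 without WT replicate 1 and 0.18 without WT replicate 2.

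Genes that serve the respiratory chain were counted in the same fit, and 0 passed the adjusted threshold in each list. The 15 measured assembly factors of complex I had a median log2 difference of 0.14, the 4 of complex II 0.13, the 5 tested of complex III 0.35, the 21 of complex IV −0.03 and the 3 of complex V −0.05. Genes for mitochondrial DNA expression had a median of 0.17 over 11 tested genes, those for electron entry into the chain and for making ubiquinone 0.20 over 16, and carriers and uncoupling proteins 0.17 over 7. The 17 TCA cycle genes had a median of 0.16, and 17 of 17 were higher in B7-H4-null replicate 2 than in replicate 1, while 10 of 17 were higher in WT replicate 2. Of 10 regulators of respiratory genes, 8 were tested, with a median of −0.16. An unadjusted p under 0.05 was reached by 2 regulators that were higher, Ppargc1b among them, and 1 that was lower, against a background of 5.05% higher and 7.20% lower. At that level 3 of the 11 genes for mitochondrial DNA expression were higher, as were 1 complex III assembly factor, 1 carrier and 1 gene for electron entry, while 1 complex IV assembly factor and 1 gene for electron entry were lower. In the other lists of assembly factors and in the TCA cycle 0 genes reached it.

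Some regulators had larger log2 differences than the subunits, and 0 passed the threshold. Ppargc1b, a coactivator of respiratory genes, had 2.44 and 3.04 RPKM in B7-H4-null LSCs, against 0.512 and 0.385 RPKM in WT LSCs, a log2 difference of 1.36, while its relative Ppargc1a had at most 0.0654 RPKM in any library. Myc, a transcription factor that drives growth and mitochondrial genes, stood at 162 and 119.9 RPKM in B7-H4-null LSCs, against 69.3 and 15.1 RPKM in WT LSCs (log2 difference 2.06, adjusted p = 0.320, limma). In both genes the B7-H4-null values were above both WT values, where 16.0% of all tested genes were. However, Ppargc1b passed the filter on low values only through the B7-H4-null libraries and so had to differ. Nrf1, the gene of the NRF1 factor, had 10.5 and 14.02 RPKM in B7-H4-null LSCs and 14.9 and 22.5 RPKM in WT LSCs (log2 difference −0.56, adjusted p = 0.510). Gabpa had 15.8 and 18.8 RPKM in B7-H4-null LSCs and 20.1 and 24.9 RPKM in WT LSCs (log2 difference −0.35, adjusted p = 0.620). In Nrf1 and Gabpa the B7-H4-null values were below both WT values, where 28.0% of all tested genes were. Esrra, a nuclear receptor that pairs with these coactivators, had 20.2 and 23.0 RPKM in B7-H4-null LSCs and 25.2 and 22.2 RPKM in WT LSCs. Tfam, which packs mitochondrial DNA and helps start its transcription, had 9.81 and 12.6 RPKM in B7-H4-null LSCs and 11.7 and 12.7 RPKM in WT LSCs. The groups overlapped in both genes.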

How the data were processed

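RNA-seq was measured in 2 B7-H4-null and 2 WT samples of sorted AML LSCs. Per the labels' protocols, libraries followed the Illumina TruSeq RNA version 2 kit, which selects poly(A) RNA and does not mark strand. The submitters' processing notes name TopHat2 2.0.12 and GRCm38. The sources used here do not give the counting program, its annotation or its handling of multiply aligned reads. The authors deposited 1 table of RPKM per Entrez gene, with the unit taken here from the values. Low values are whole multiples of a step per gene. With a gene length fitted to its values, each of the 14608 genes with reads in all libraries gave whole numbers of reads. The margin allowed was 0.001 reads, and wider in genes with many reads.

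Symbols came from RefSeq on GRCm38.p6 for 25275 gene IDs, and for 23 more through an older ID, among them Ndufb1. A gene was tested if 2 or more libraries reached 1 RPKM. The model was limma 3.58.1 in R 4.3.3 on log2(RPKM + 1), with a genotype term only and a trend of variance with mean; tests were two-sided, with Benjamini-Hochberg adjustment over 12107 genes and a threshold of 0.05. The added 1 makes fold changes of scarce genes look smaller than they are. The test was also run on simulated reads drawn with independent noise for each gene, with the outcome not reported here. Such reads lack the shared differences between libraries seen in the subunits. Read ratios carry exact binomial intervals of 95%, and these and the floor of 3 reads cover counting error only. Gene lengths were not given, so the shortest length that gave whole reads in all libraries was used. The true read counts of a gene may therefore be higher than the recovered ones. Nothing in the labels says that the samples are from separate animals, and the spread behind the p-values may be technical.

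Members and lists were chosen with earlier results of these data known. Named with values were members past the threshold, the 3 smallest p in complexes I, III, IV and V, all of complex II, Cyc1 and Cycs, the most abundant member of each complex, isoform families, catalytic or cofactor-bearing core subunits, and 7 regulators. Other members named for a replicate ratio, an overlap or a shared sequence were chosen after their values were seen. Values of some items that this rule or the lists cover are not reported here. Shared sequence was searched as 50-base words of each member's longest GENCODE vM21 coding transcript. Alternatives were other filters, scalings and a pseudocount of 0.1, no trend, limma's voom on recovered reads, a replicate term and leaving out each library.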

Additional observations from a re-analysis of the deposited data

How the results depend on the processing

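The count of subunits past the adjusted threshold was 0 under every alternative run, including limma's voom on recovered reads, which called 6 genes higher and 10 lower in the whole table. The smallest adjusted p of any subunit ranged from 0.190 to 0.678 over the alternatives. The numbers of the replicates were not treated as pairs, because the labels do not tie them to a shared batch; the deviations of same-numbered libraries correlated with r = 0.247 over 12107 genes. With the replicate block the count of subunits called was 0 and their median log2 difference 0.06, and 12 genes were called higher and 9 lower, against 5 and 7 without it. Without B7-H4-null replicate 1 or 2, and with no filter on low values, the whole table had 0 called genes, while 36 were higher and 20 lower without WT replicate 1 and 20 higher and 9 lower without WT replicate 2. Leaving out 1 library moved the median from −0.11 to 0.24 over all subunits, from −0.11 to 0.21 in complex I, −0.16 to 0.25 in complex II, −0.17 to 0.29 in complex III, −0.18 to 0.25 in complex IV and −0.059 to 0.25 in complex V. A library left alone in its group was assumed to vary like the others. Of 34 named and tested subunits, 14 kept the sign of their difference under all alternatives, and 360 of 403 recomputed values had the original sign.

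Under median-ratio scaling the sign turned for Sdhb (0.0095), Cox6b1 (0.099) and Ndufa4 (0.031), and under quantile normalization for Sdhc (−0.024), Sdhd (−0.043), Cox4i1 (−0.25), Cox6a1 (−0.12), Cox8a (−0.078), Atp5a1 (−0.14), Atp5b (−0.085) and Atp5g3 (−0.12). The cause was not tested. Leaving out 1 library at a time gave ranges of −0.039 to 0.31 for Atp5a1, −0.076 to 0.13 for Atp5g2, −0.19 to 0.41 for Atp5g3, −0.13 to 0.30 for Cox4i1, −0.29 to 0.32 for Cox6a1, −0.21 to 0.20 for Cox6b1, −0.29 to 0.058 for Cox7a2, −0.17 to 0.56 for Cox7a2l, −0.0098 to 0.42 for Cox7b and −0.21 to 0.37 for Cox8a. For Cyc1 the range was −0.051 to 0.33, for Ndufa4 −0.41 to 0.27, for Ndufs1 −0.0041 to 0.18, for Ndufv2 −0.17 to 0.21, for Sdhb −0.37 to 0.19, for Sdhc −0.17 to 0.25, for Sdhd −0.22 to 0.33, for Uqcrfs1 −0.25 to 0.41 and for Uqcrh −0.088 to 0.45. In alternatives chosen after seeing the data, placing Ndufa4 in complex I by its name gave medians of 0.058 for complex I and 0.054 for complex IV, and the 35 tested subunits with no 50-base word in another gene had a median of 0.032. Depth limits what can be said of Cox4i2, Cox6a2, Cox7a1, Ndufb4c and Ndufab1, which had 29 recovered reads or fewer per genotype. The untested Ndufa4l2 and Cox8c had fewer still.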
